A study of Mus musculus with 6 samples.

Results

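The C/D box small nucleolar RNAs (snoRNAs) of the mouse duodenum were examined here. They were taken as the transcripts whose gene is annotated as a snoRNA and carries a Snord symbol, and 75 of the 1929 short transcripts in the deposited table met that rule. RNA came from the superior duodenum of female C57Bl/6N mice culled after an overnight fast. The duodenum is the part of the small intestine next to the stomach. Wild-type mice were compared with mice heterozygous for Polr3b, with 3 libraries each. Polr3b codes for a catalytic-core protein of Pol III, RNA polymerase III. The heterozygous mice carry a germline frameshift allele made with Cas9 in a C57BL/6N line, so every cell of the body has the mutation and no Cre or transgene was used. The ages of the mice were not given in the sources used here.

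Duodenum tissue holds many cell types, and fewer cells of a type cannot be told apart from less RNA per cell. Nothing in the table checks the labels: no row was matched to the Polr3b messenger RNA, and mRNA markers of intestinal cells are longer than the RNAs that were kept. The heterozygous columns are headed with a name of another Pol III subunit. They were assigned to the only other genotype of the series and are numbered here in column order. The labels do not say outright that each library is a separate mouse, so the p-values measure only the spread between these libraries, which may be technical.

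C/D box snoRNAs are nucleolar RNAs that are bound by fibrillarin, Nop56, Nop58 and Snu13. They are named for the C box near the 5′ end and the D box near the 3′ end, which fold together. A stretch just upstream of a D box, or of an internal copy called D′, pairs with a target RNA and directs 2′-O-methylation of the target nucleotide opposite the fifth base before the box. Most members guide modification of ribosomal RNA (rRNA), a few guide modification of the U6 spliceosomal RNA, and a small set including U3, U8, U14 and U22 takes part in cutting the rRNA precursor. In mammals most are released from introns of genes transcribed by RNA polymerase II, so they are not products of Pol III.

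The sequences of the members carried these features. A C box written as ATGATGA or GTGATGA lay within 25 bases of the 5′ end in 46 of the 75 (61.3%), and its core, TGATG or GATGA, in 72 (96.0%). A D box, CTGA, lay within 25 bases of the 3′ end in 74 (98.7%). Both the core and the D box were found in 71 members (94.7%). They were found in 7.3% of 41 H/ACA snoRNAs and Cajal body RNAs (Snora and Scarna genes), most of which guide pseudouridylation, in 37.8% of 230 snoRNA genes without a Snord, Snora or Scarna symbol, and in 0.6% of 628 other named transcripts of the same range of lengths. Only the transcribed strand was searched. The core was not found in Snord118, Snord22 and Snord19, and the D box was not found in Snord53. The members were 64 to 238 bases long with a median of 79. Snord118, the member with the highest normalised count per base of length, has only the D box in these windows. The sequences below show the boxes in capitals in Snord118 and in the guides highest on that scale. They are GENCODE vM21 transcripts (GRCm38), written 5′ to 3′ as DNA letters.
Snord49a: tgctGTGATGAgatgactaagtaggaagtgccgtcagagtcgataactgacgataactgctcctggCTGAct
Snord37: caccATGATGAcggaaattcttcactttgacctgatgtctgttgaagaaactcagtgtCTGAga
Snord49b: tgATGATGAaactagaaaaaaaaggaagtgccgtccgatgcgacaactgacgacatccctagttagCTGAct
Snord118: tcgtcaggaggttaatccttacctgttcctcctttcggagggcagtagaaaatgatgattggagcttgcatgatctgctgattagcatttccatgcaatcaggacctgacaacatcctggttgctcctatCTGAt

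The guides could also be read against their targets. A perfect complement to 18S rRNA of at least 10 bases, ending within 3 bases of a CTGA, was found in 17 of the 21 members listed as 18S guides (81.0%), in 3 of the 54 others (5.6%) and in 0 of the 41 Snora and Scarna RNAs. The 3 others were Snord83b, Snord90 and Snord110. The longest such elements belonged to Snord57, with 17 bases, and Snord45c, with 16. The base of 18S opposite the fifth nucleotide before the box was A99 for Snord57 and A159 for Snord45c, counted from the 5′ end of a 1849-base 18S copy in the annotation. The element of 14 bases in Snord14a, Snord14c and Snord14d was the same and pointed to C469. Snord4a, one of the abundant 18S guides, had an element of 11 bases that pointed to U121. The antisense elements are in capitals.
Snord57: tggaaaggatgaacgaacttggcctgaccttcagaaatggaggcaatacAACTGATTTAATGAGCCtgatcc
Snord45c: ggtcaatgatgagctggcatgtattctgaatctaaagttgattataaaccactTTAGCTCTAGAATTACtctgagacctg
Snord14a: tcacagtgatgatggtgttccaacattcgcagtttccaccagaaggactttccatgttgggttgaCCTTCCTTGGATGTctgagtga
Snord14c: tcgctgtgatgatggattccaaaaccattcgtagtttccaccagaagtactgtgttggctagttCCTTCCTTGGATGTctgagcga
Snord14d: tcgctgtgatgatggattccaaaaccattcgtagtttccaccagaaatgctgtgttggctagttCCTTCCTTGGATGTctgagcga
Snord4a: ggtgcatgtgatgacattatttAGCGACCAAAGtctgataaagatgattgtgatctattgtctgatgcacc

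The same search against the 107-base U6 RNA found 3 of the 75 members (4.0%), and these were the 3 members listed as U6 guides. Their elements, in capitals below, pointed to A47 for Snord7, A53 for Snord8 and C60 for Snord67.
Snord7: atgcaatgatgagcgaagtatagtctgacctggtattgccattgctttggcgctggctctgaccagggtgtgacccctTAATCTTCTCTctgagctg
Snord8: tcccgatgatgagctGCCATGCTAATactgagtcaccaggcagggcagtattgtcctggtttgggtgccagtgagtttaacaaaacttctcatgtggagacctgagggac
Snord67: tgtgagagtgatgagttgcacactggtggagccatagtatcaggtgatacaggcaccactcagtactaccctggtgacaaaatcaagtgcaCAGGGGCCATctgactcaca

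Total counts over the short transcripts ran from 1719869 in wild-type library 1 to 9771623 in heterozygous library 2. Heterozygous library 1 came next, at 8869767, and the remaining libraries had at most 4078753. Wild-type library 1 and heterozygous library 3 had the lowest totals and stood apart in their snoRNA profile. Over the 75 members, wild-type library 1 ranked the members most like heterozygous library 3, with a Spearman correlation of 0.92, against 0.84 and 0.83 with the other wild-type libraries. Heterozygous library 3 reached 0.80 and 0.87 with the other heterozygous libraries, but 0.91 and 0.88 with wild-type libraries 2 and 3. It thus ranked the members more like each wild-type library than like its own genotype, and the reason was not tested. By comparison, wild-type libraries 2 and 3 reached 0.98 and heterozygous libraries 1 and 2 reached 0.95. These are descriptions over the same 75 transcripts. The results that rest on these libraries are given below with and without them.

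Of all counts, the 75 members together held 1.68%, 2.59% and 3.36% in the wild-type libraries, in the order of their numbers, against 2.01%, 2.21% and 1.26% in the heterozygous ones. The 95% Wilson intervals were at most 0.0192 percentage points to either side and cover counting error only. The share was 2.54% ± 0.842 (SD, n = 3) in wild type and 1.82% ± 0.499 (SD, n = 3) in heterozygous mice. The genotypes overlapped, since wild-type library 1 lay below 2 of the heterozygous libraries. Without wild-type library 1 the shares no longer overlapped, at 2.59% and 3.36% against 1.26% to 2.21%. As a share of the named transcripts outside nuclear tRNAs, the members held 7.57% to 11.96% in wild type and 7.13% to 11.1% in heterozygous libraries.

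Levels are compared between members as DESeq2 normalised counts divided by length in bases. How read yield varies with the length or sequence of an RNA was not measured. The levels therefore describe reads and need not follow numbers of molecules. They spanned 1530-fold, from a mean over the 6 libraries of 88.6 per base for Snord118 to 0.058 for Snord107, with a median of 7.57. Snord118, or U8, acts in the maturation of 5.8S and 28S rRNA. It ranged from 62.7 to 121 per base. It was followed by Snord49a (63.7 ± 16.7, SD over 6 libraries), Snord37 (52.4 ± 13.9), Snord49b (43.7 ± 5.15), Snord2 (43.2 ± 17.4) and Snord104 (36.0 ± 13.1). Snord49a, Snord37, Snord49b and Snord104 are listed as 28S guides. Of the 74 pairs of neighbours in this order, 73 had ranges over the libraries that overlapped, and the exception was the pair at the bottom, Snord53 and Snord107. The 10 members with the most counts held 42.3% to 52.0% of all counts of the members in each library.

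**Figure D1:**
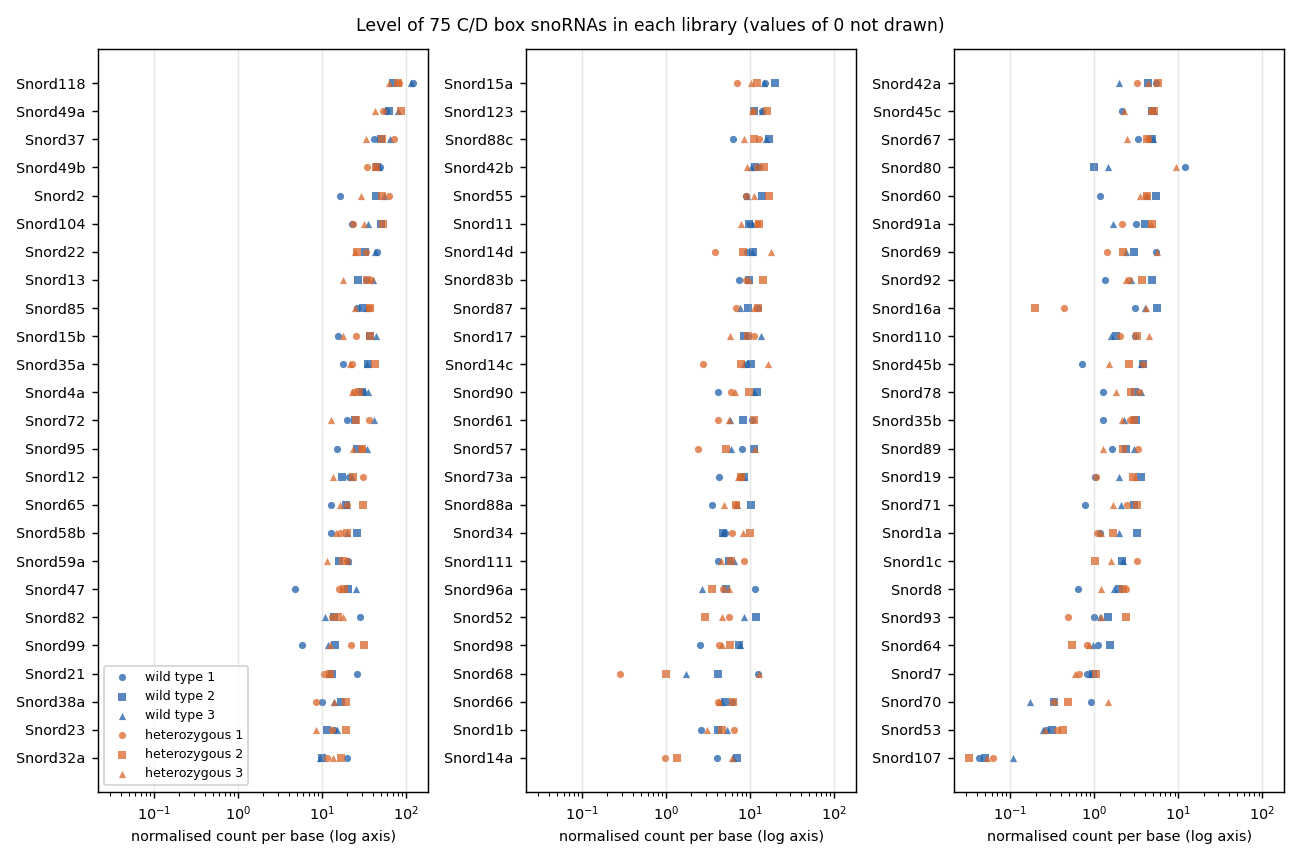
Normalised count per base (log axis) of the 75 C/D box snoRNAs in each of the 6 libraries, ordered by the mean level; blue marks are wild-type and orange marks are heterozygous libraries. Snord118 has the highest mean level, at 88.6 per base, and most neighbours overlap; Snord68, Snord14a and Snord16a have heterozygous libraries 1 and 2 far to the left, and the values of 0, in heterozygous libraries 1 and 2 for Snord80 and in wild-type library 1 for Snord52 and Snord1c, are not drawn.

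For 72 members the annotation placed the gene inside another gene on the same strand. These hosts numbered 51, and 19 of the members lay in 13 genes of ribosomal proteins. Snord118, Snord104 and Snord13 had no such host. Members placed in 1 host may be made from the same precursor, which was not examined here, but their levels per base were unequal. In 11 of the 15 hosts compared, each with more than 1 member, the highest and the lowest member differed by more than 2-fold per base, and the median difference was 3.23-fold. In Nop58, whose protein binds C/D box snoRNAs, Snord11 was at 10.4 per base and Snord70 at 0.619. In Gas5, a noncoding host, Snord47 was at 17.0 and Snord78 at 2.63. In Rpl13a, Snord35a was at 29.1 and Snord34 at 6.42. In Rpl23a, Snord4a was at 28.4 and Snord42a at 4.18. In the noncoding host 2410006H16Rik, Snord49a was at 63.7 and Snord65 at 19.7. In 1810032O08Rik, Snord1b was at 4.36 and Snord1c at 1.69, a pair of 97.4% identity whose shared reads Salmon divided by a model, so their ratio is uncertain. The highest member exceeded the lowest in all 6 libraries for 14 of these 15 hosts, the exception being Gnl3 with 4 libraries. The highest and lowest were picked by their mean over these same libraries, so part of that agreement is built in. The 14 hosts include Hspa8, whose members Snord14d and Snord14c are 97.7% identical.

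**Figure D2:**
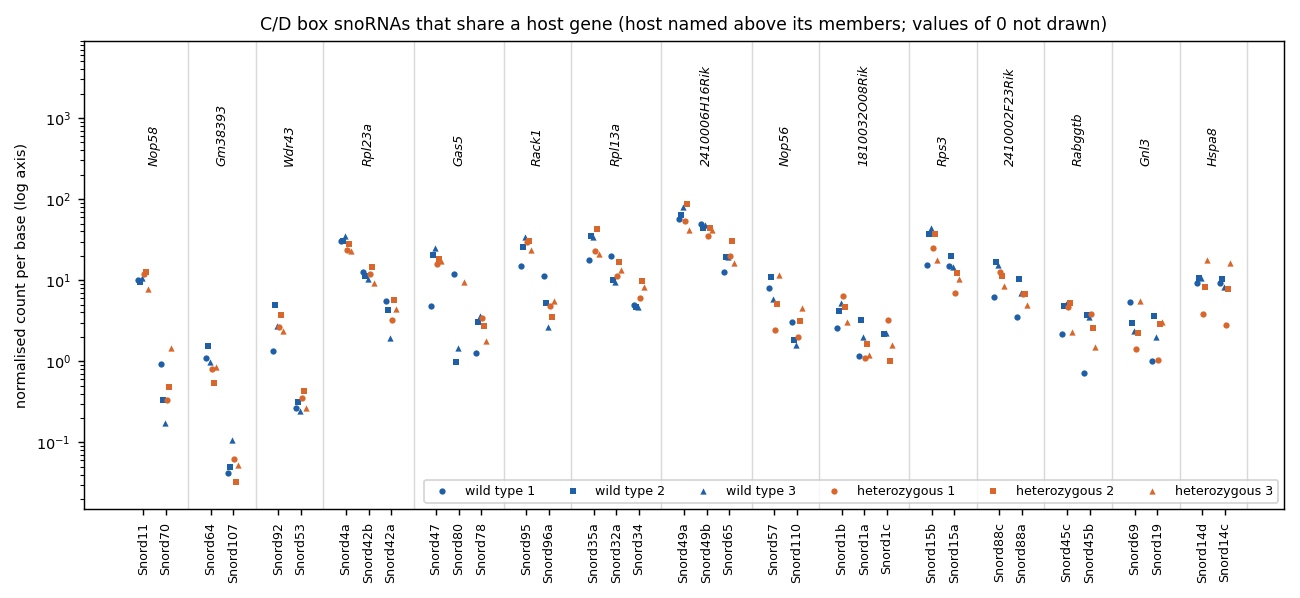
Normalised count per base (log axis) of the 35 members of the 15 host genes compared, grouped by host and ordered by the ratio of the highest to the lowest member; each mark is 1 library, blue for wild type and orange for heterozygous. The ratio falls from 16.9 for Nop58 at the left to 1.1 for Hspa8 at the right.

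Whether reduced Polr3b dosage altered these RNAs was asked by fitting all transcripts with DESeq2 and reading the members from that fit. No member was called. At a Benjamini-Hochberg adjusted p under 0.1, 0 of the 74 members with an adjusted p passed, against 17 of 734 transcripts (2.32%) over the table. At an unadjusted p under 0.05, again 0 members passed, against 6.81% of the transcripts. In the quasi-likelihood test of edgeR, 0 of 74 members passed on either measure, against 3.29% of transcripts at an unadjusted p under 0.05. The median log2 difference, heterozygous over wild type, was -0.038 over the members and -0.13 over all transcripts, with 33 members above 0 and 42 below. That split followed the scaling, with 8 above and 67 below under library totals and 43 above and 32 below under size factors from positive counts. In 61 members the difference was below 0.5 in size. The errors were wide: the median standard error was 0.59, and the 95% interval lay within 1 log2 unit of 0 for only 6 members. For the other 69 members the interval took in a 2-fold change in at least 1 direction.

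**Figure D3:**
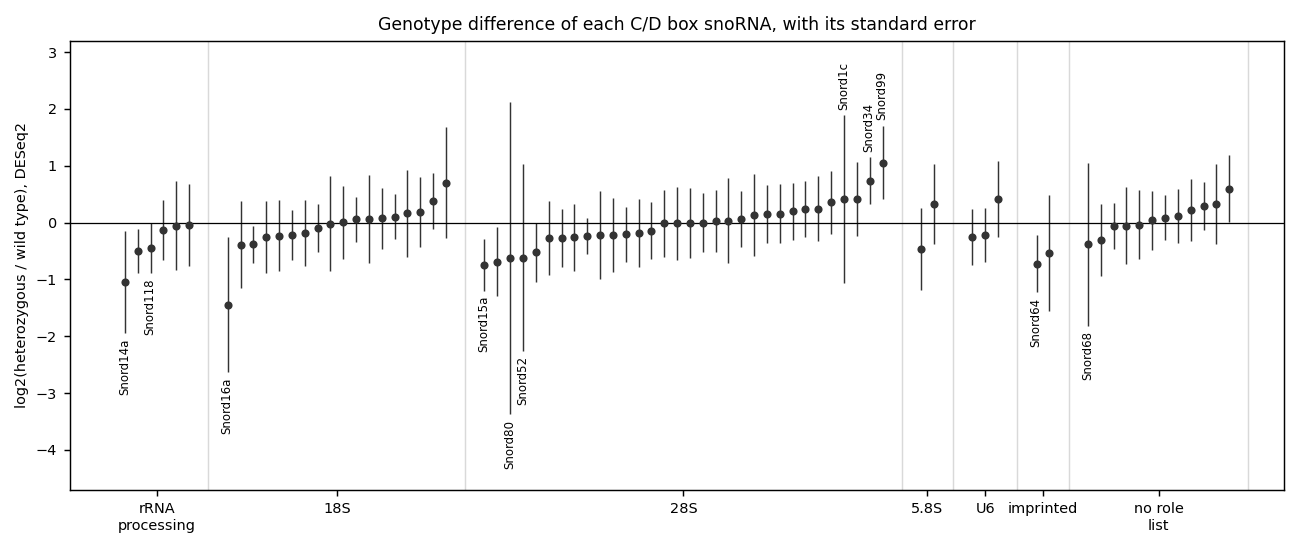
Log2 ratio of heterozygous over wild type from DESeq2 for each of the 75 members, with its standard error as the bar, grouped by the role lists; a member on the rRNA processing list is drawn there and not repeated under 18S. Most points lie within 0.5 of 0 and none passed the adjusted threshold; Snord80, Snord52 and Snord1c, each at 0 in 1 or 2 libraries, have the longest bars along with Snord68.

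The rRNA processing list held 6 of the members, matched by Snord symbol, so U3 genes under other symbols were not looked for. All 6 had a log2 difference below 0, although Snord13 turned to above 0 under size factors from positive counts. The median was -0.29 and 0 were called. Snord118 had normalised counts of 16367, 9482 and 15489 in wild type, against 11076, 10848 and 8471 in heterozygous libraries. The groups overlapped under DESeq2 scaling, since wild-type library 2 was below 2 heterozygous libraries, but not under library totals. The log2 difference was -0.44 ± 0.44 (SE, DESeq2 adjusted p = 0.9999). Snord22, or U22, which is needed for 18S rRNA and is released from the noncoding host Snhg1, was at 5625, 4075 and 5367 in wild type and 4221, 3274 and 3131 in heterozygous libraries. The groups met at wild-type library 2 under DESeq2 scaling and overlapped under TMM and positive-count factors. They did not overlap under library totals, for which the share of all transcripts that separated was not counted. The log2 difference was -0.50 ± 0.38 (SE, DESeq2 adjusted p = 0.9999). Snord13, or U13, also of the 18S pathway, was at 3446, 2765 and 4171 in wild type and 4024, 3588 and 1859 in heterozygous libraries. Heterozygous library 3 alone was low, and the log2 difference was -0.13 ± 0.53 (SE; DESeq2 adjusted p = 0.9999).

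The U14 copies Snord14a, Snord14c and Snord14d act in 18S processing and are also listed as 18S guides. Snord14c and Snord14d lie in Hspa8 and are 97.7% identical, so Salmon had to divide their shared reads by a model. Summed, the pair reached 1576, 1799 and 1627 normalised counts in wild type, against 564, 1372 and 2916 in heterozygous libraries. The wild-type libraries lay close together and the heterozygous libraries lay on both sides of them, and the log2 difference of the sum was -0.05 (DESeq2 adjusted p = 0.998).

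Among the 18S guides 0 of 21 were called, with 9 log2 differences above 0, 12 below and a median of -0.04. The most abundant of them, Snord4a, was at 2176, 2143 and 2528 in wild type and 1682, 1978 and 1608 in heterozygous libraries. All heterozygous values were below all wild-type values, and the log2 difference was -0.38 ± 0.32 (SE; DESeq2 adjusted p = 0.9999). Among the 28S guides 0 of 31 with an adjusted p were called, out of 32 listed, with 15 differences above 0, 17 below and a median of -0.01. Their most abundant member, Snord49a, was at 4108, 4528 and 5792 in wild type and 3860, 6203 and 3033 in heterozygous libraries. Here the wild-type range lay inside the heterozygous one, and the log2 difference was -0.14 ± 0.50 (SE; DESeq2 adjusted p = 0.9999).

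The smaller groups also had 0 calls. Of the 5.8S guides, Snord96a was at 917, 421 and 217 in wild type and 386, 284 and 453 in heterozygous libraries, and Snord71 was at 65.3, 252 and 176 against 210, 271 and 141. Both members overlapped between the genotypes. U6 is itself a Pol III transcript, while its guides are intron-encoded. Of the 3 U6 guides, the most abundant, Snord67, was at 365, 535 and 558 in wild type and 487, 471 and 269 in heterozygous libraries, with a log2 difference of -0.25 ± 0.49 (SE; DESeq2 adjusted p = 0.9999). Snord7 was at 80.1, 92.7 and 87.5 against 64.3, 100.2 and 57.6, and Snord8 at 71.2, 214 and 190 against 262, 241 and 134. All 3 overlapped. The imprinted Snord clusters, known for their expression in brain, were represented by Snord64 and Snord107 alone. Snord64 was at 74.2, 102 and 65.0 in wild type and 54.2, 36.5 and 57.6 in heterozygous libraries, with no overlap and a log2 difference of -0.72 ± 0.50 (SE; DESeq2 adjusted p = 0.9999). Snord107 was at 2.28 to 7.50 in every library. A further 12 members were on no role list, with 0 called and a median of 0.06.

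The members whose groups did not overlap under DESeq2 scaling were few. All heterozygous values exceeded all wild-type values in 1 of the 74 members with an adjusted p, Snord34, against 4.09% of all transcripts with one. All heterozygous values were below all wild-type values in 4, Snord15a, Snord4a, Snord49b and Snord64, against 6.13% of the transcripts. The separation depended on the scaling: Snord34 kept it under TMM and positive-count factors but not under library totals, Snord15a and Snord64 under TMM factors and library totals but not under positive-count factors, and Snord4a and Snord49b under none of the 3. Under library totals Snord118, Snord22, Snord82 and Snord21 also separated, lower in heterozygous libraries. Snord21 did so under TMM factors too. The share over all transcripts was not counted under these scalings. Snord34, a 28S guide from Rpl13a, was at 350, 331 and 329 in wild type and 419, 693 and 572 in heterozygous libraries. Its wild-type values agreed closely, and its log2 difference of 0.74 ± 0.41 had the smallest p of the members (SE; DESeq2 unadjusted p = 0.070, adjusted p = 0.80).

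Snord15a, a 28S guide from Rps3, was at 2208, 2915 and 2133 in wild type and 1018, 1792 and 1523 in heterozygous libraries, a log2 difference of -0.74 ± 0.45 (SE; DESeq2 adjusted p = 0.89). Snord15b of the same host did not separate the genotypes, with 2256, 5438 and 6389 against 3651, 5439 and 2595. Snord49b was at 3538, 3208 and 3452 in wild type and 2495, 3147 and 3031 in heterozygous libraries, a log2 difference of -0.23 ± 0.32 (SE; DESeq2 adjusted p = 0.9999). The largest difference above 0 was that of Snord99, a 28S guide from the noncoding host Snhg12. It was at 430, 1050 and 864 in wild type and 1642, 2306 and 931 in heterozygous libraries, with overlap through heterozygous library 3 and a log2 difference of 1.06 ± 0.65 (SE; DESeq2 adjusted p = 0.89).

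A small set of members differed sharply between heterozygous library 3 and the other heterozygous libraries. Snord80, a 28S guide from Gas5, was at 980, 80.5 and 118 in wild type and 0, 0 and 763 in heterozygous libraries. It was thus absent from the counts of heterozygous libraries 1 and 2 and higher in heterozygous library 3 than in wild-type libraries 2 and 3. A count of 0 was taken to allow up to 3 counts. The mean wild-type level of Snord80 was then at least 273-fold above heterozygous libraries 1 and 2, or at least 69.1-fold without wild-type library 1. Its lowest wild-type level was at least 55.9-fold above them. These bounds use the higher of the floors of 3 counts per library and cover counting error only. The counts are Salmon estimates, and whether reads of Snord80 were assigned to other transcripts was not examined. DESeq2 gave Snord80 no p because of Cook's filtering, with a log2 difference of -0.63 ± 2.75 (SE). Snord68, from Rpl13 and on no role list, was at 1054, 358 and 148 in wild type and 24.5, 85.2 and 1087 in heterozygous libraries, a log2 difference of -0.38 ± 1.43 (SE; DESeq2 adjusted p = 0.9999). Wild-type library 1 and heterozygous library 3 were alike in both RNAs and well above the rest.

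Snord16a, an 18S guide from Rpl4, was at 303, 557 and 401 in wild type and 43.7, 19.6 and 403 in heterozygous libraries, a log2 difference of -1.44 ± 1.19 (SE; DESeq2 adjusted p = 0.9999). Snord14a, from Rps13, was at 347, 609 and 544 in wild type and 84.5, 119 and 529 in heterozygous libraries, a log2 difference of -1.04 ± 0.90 (SE; DESeq2 adjusted p = 0.9999). In these RNAs heterozygous library 3 fell within the wild-type range while the other heterozygous libraries were far below it. Gm23136, a snoRNA gene with 88.9% identity to Snord16a, was at 264, 649 and 553 in wild type and 354, 497 and 373 in heterozygous libraries, without that pattern.

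**Figure D4:**
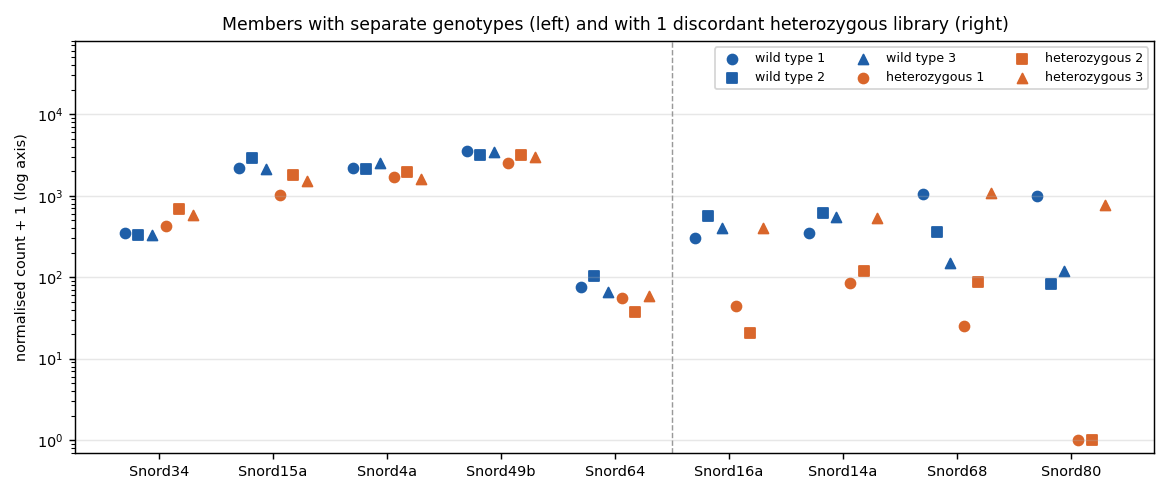
Normalised count plus 1 (log axis) in each library for the 5 members whose genotypes did not overlap under DESeq2 scaling, left of the dashed line, and for 4 members with a discordant heterozygous library 3, right of it; blue is wild type and orange is heterozygous. On the right heterozygous library 3, the orange triangle, sits with or above the wild-type marks, while heterozygous libraries 1 and 2 are below all wild-type marks, at 0 for Snord80.

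Without heterozygous library 3, these 4 members were the only ones called, and all were lower in heterozygous libraries 1 and 2 than in wild type. That was 4 of 75, against 54 of 881 transcripts (6.13%) called lower over the table in the same fit, so the share among the members was near the background. In that fit the log2 difference was -3.73 for Snord16a (DESeq2 adjusted p = 6.54e-06), -2.30 for Snord14a (adjusted p = 0.0031) and -3.23 for Snord68 (adjusted p = 0.047), and Snord80 had an adjusted p of 1.78e-07. These members were described above because heterozygous library 3 differed from its genotype. Calls without that library follow in part from that choice, and their p-values give no separate support. Without both wild-type library 1 and heterozygous library 3, which leaves 2 libraries each, 5 of 75 members were called against 14.6% of transcripts. They were the same 4, lower, and Snord99, higher (log2 difference 1.07, DESeq2 adjusted p = 0.085). Without wild-type library 1 alone, 0 of 75 members were called, against 6.98% of transcripts. Why the libraries differed was not tested.

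Heterozygous library 3 was more than 2-fold above the mean of the other heterozygous libraries, on the log2 scale with a pseudocount of 1, for 9 members. These were Snord80, Snord68, Snord16a, Snord14a, Snord14c, Snord14d, Snord57, Snord69 and Snord70. It was more than 2-fold below for 6. Wild-type library 1 was more than 2-fold above its own genotype for 8 members and below for 20, and 4 members were above in both libraries and 3 below in both. Across the 75 members the deviations of the libraries correlated weakly, with a Pearson r of 0.36 and 0.24 without Snord80. Snord52 and Snord1c were at 0 in wild-type library 1 only, with 550 and 768 for Snord52 and 164 and 168 for Snord1c in the other wild-type libraries. Snord1c is 97.4% identical to Snord1b, and together with the matching copy Gm24253 they summed to 332, 477 and 559 in wild type and 726, 505 and 353 in heterozygous libraries, so the summed level did not drop to 0 in that library.

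**Figure D5:**
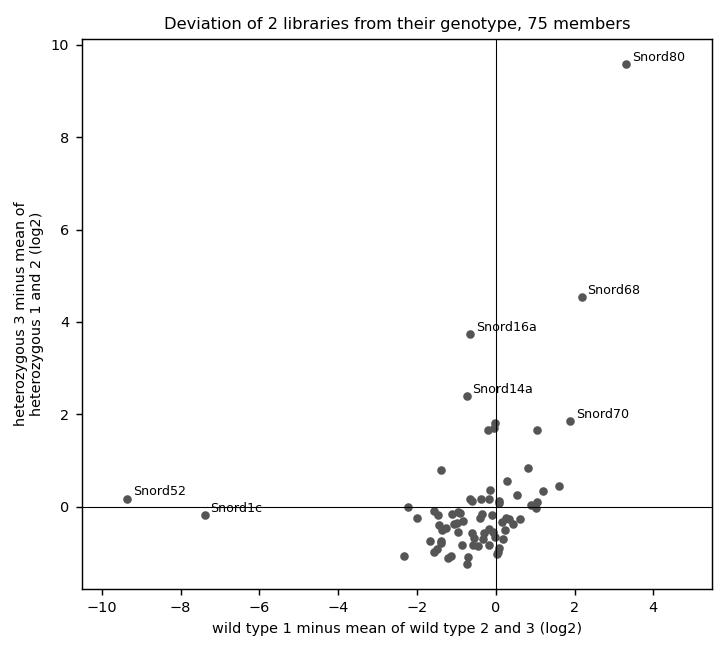
Deviation of wild-type library 1 from the mean of wild-type libraries 2 and 3 (x axis, log2 of normalised count plus 1) against that of heterozygous library 3 from the mean of heterozygous libraries 1 and 2 (y axis), 1 point for each of the 75 members. Snord80 and Snord68 are high on both axes, Snord16a and Snord14a on the y axis alone, and Snord52 and Snord1c, at 0 in wild-type library 1, lie far left.

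Among the 41 Snora and Scarna RNAs, 0 were called by DESeq2 or edgeR, and the median log2 difference was -0.25. At an unadjusted p under 0.05, 1 passed in each tool, Snora81, with 2633, 2143 and 2428 in wild type and 850, 1018 and 1657 in heterozygous libraries (DESeq2 adjusted p = 0.60). Snora21, with the highest mean normalised count among them, was at 18.2 per base, below the 10 highest C/D box snoRNAs on that scale. The other Snora and Scarna RNAs were not ranked per base. Without heterozygous library 3, 6 of 40 were called, against 7.72% of all transcripts and 4 of the 75 C/D box members in that fit. Without wild-type library 1 as well, 8 of 40 were called, against 14.6% of all transcripts and 5 of the 75 members. The difference between the classes was not tested.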

How the data were processed

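Short RNAs of 6 duodenum libraries were analysed. According to the study's methods, the authors kept RNAs under 200 nucleotides, demethylated them with a kit, sequenced paired 75-base reads, trimmed them with Cutadapt, quantified them with Salmon on a GRCm39 index and used tximport to import sequences under 300 bases. What they deposited are estimated counts (expected counts), rounded to whole numbers, neither scaled nor pooled. Salmon divides reads shared by similar RNAs by a model.

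Transcripts were named through GENCODE vM21 (GRCm38) by Ensembl identifier without version: 1356 of 1742 matched, and 0 of the 75 members had the same version. Since the builds differ, no coordinates are given, and host genes come from this annotation alone. The comparison within 1 host gene is not reported here. Total counts per library ran from 1719869 to 9771623. Complements of 18S and U6 were searched in the annotation's own RNA sequences, and no 28S sequence was used here.

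The test was DESeq2 1.42.0 (Wald, median-of-ratios size factors, default filters, adjusted p under 0.1 over all transcripts), after the study's methods, and edgeR 4.0.16 (quasi-likelihood, R 4.3.3) was an alternative. Both were tested on simulated data. Similar sequences were found with BLAST 2.17.0, and near-identical means that at least 95% of each sequence aligned with 95% identity or more. Other alternatives were size factors, filters, a threshold of 0.05, denominators and leaving out each library. Leaving out wild-type library 1 with heterozygous library 3 was chosen after seeing the data.

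The members, lists and rules were chosen with earlier results of these data known. Role lists were written from general knowledge of snoRNAs, and a starred name in a list takes a letter suffix only. The rule named called members, the 10 with the most counts, up to 6 in each direction with an unadjusted p under 0.05, the rRNA processing list, the most abundant member of each list, and the most and least abundant of hosts with at least 3 members. Other members in the text (those with separate genotypes, a discordant library, a sequence feature or a host of 2 members, and further members of short lists) were chosen after their values were seen. Intervals are at the 95% level (scipy 1.17.1 for Wilson intervals).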

Additional observations from a re-analysis of the deposited data

How the results depend on the processing

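No paired analysis was possible because the labels give the heterozygous samples no replicate numbers and the columns headed for that group could not be tied to single samples. The members called stayed at 0 under every alternative that kept all 6 libraries (edgeR, TMM factors, library totals, positive-count factors, a mean count of at least 10, Cook's filtering off, near-identical transcripts summed, an adjusted p under 0.05). Leaving out 1 library gave 0 to 4 members, 0 to 6 Snora and Scarna RNAs and 7 to 68 transcripts called, the highest of each without heterozygous library 3 and the lowest transcript count without heterozygous library 2; without wild-type library 1, 55 transcripts were called. Without wild-type library 1 and heterozygous library 3, the counts were 5 members, 8 Snora and Scarna RNAs and 117 transcripts. edgeR called 0 transcripts at an adjusted p under 0.1 and 19 at an unadjusted p under 0.05, against 17 and 50 of those with an adjusted p in DESeq2; 13 DESeq2 calls stood at 0.05. Scaling by library totals moved the median difference of the members to -0.40 and that of all transcripts to -0.45, and positive-count factors moved them to 0.078 and -0.0026; the members stayed within 0.1 of all transcripts under both. The log2 difference of the members' share, -0.46, was -0.15 for the sum of normalised counts and ran from -0.73 to -0.22 with 1 library left out. Of 105 refits of the 15 printed log2 differences with all libraries kept, 103 had the same direction and 2 turned, Snord13 to 0.055 and Snord49a to 0.013 with positive-count factors. With 1 library left out, 8 of 90 turned. Their ranges were -0.35 to 0.14 for Snord13, -0.48 to 0.068 for Snord49a, -3.23 to 0.69 for Snord68 and -12.13 to 1.38 for Snord80 (a fitted value that depends on its zeros and is no bound); without wild-type library 1 and heterozygous library 3, Snord13 was at 0.16. The causes were not tested. With 3 libraries a genotype, the 95% interval of 69 of the 75 members reached past a 2-fold change, so changes of that size in single members were mostly not resolved.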
